A study of Heterocephalus glaber with 23 samples.

Results

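Transcript levels of 7 genes of thyroid hormone action were examined in the liver of the naked mole-rat (NMR), a long-lived rodent living in colonies where breeding is left to few adults. The genes were taken by symbol from the 16339 rows of the count table, with no rule on their values. Earlier results of these data were known when the genes were chosen. The genes were the receptors THRA and THRB, the deiodinase DIO1, the membrane transporter SLC16A10, the plasma carriers TTR and SERPINA7, and the hormone-responsive gene THRSP. All 7 were found and all 7 passed the filter on low counts, among 12306 genes that did.

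Each of the 23 libraries came from the liver of a different animal, judged by the animal numbers in the titles. There were 6 female breeders aged 3.3 to 3.7 years, 5 female non-breeders aged 2.4 to 4.0 years, 6 male breeders aged 2.8 to 4.1 years and 6 male non-breeders aged 2.7 to 4.1 years. The labels give no allele, strain or treatment beyond sex and status. By the methods of the study, breeders were workers taken out of established colonies and paired with an animal of the opposite sex, whereas non-breeders were litter siblings that stayed in those colonies as workers. Housing therefore cannot be told apart from status. Breeding males were euthanized days after a birth and breeding females weeks after their last pregnancy, so time since birth cannot be told apart from sex among breeders.

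Thyroid hormone leaves the thyroid mostly as thyroxine, a prohormone that travels in blood bound to carrier proteins made largely by the liver. Cells take it up through membrane transporters, and deiodinases turn it into the active triiodothyronine or inactivate it. Triiodothyronine then binds nuclear receptors that sit on target genes together with retinoid X receptors and switch coregulators. Liver is a classical target organ, in which the hormone acts on lipid and energy metabolism chiefly through the beta receptor.

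Library totals lay between 11826665 and 22969366 counts. No 2 libraries of a group agreed within sampling noise, since the lowest chi-square per degree of freedom was 31.0 over 55 pairs. Principal component 1 held 26.4% of the variance and set apart 3 libraries, those of male breeder 5, of female breeder 6 and of male non-breeder 3. Results that rest on them are given with and without them. The libraries were of 2 slightly different read lengths. All 6 female breeders and male breeders 1 to 3 had the shorter reads and the other 14 libraries the longer ones, so read length cannot be told apart from status in females. All 9 hepatocyte markers were present, with a summed level of 105644 to 230252 CPM. CPM are read counts per TMM-scaled library size. Of 6 markers of thyroid tissue 5 were in the table and summed to 0.33 to 16.2 CPM, the highest sum being that of female non-breeder 2, with up to 11.6 CPM in female breeders (breeder 6). TG had 1 to 10 counts per library and SLC5A5, the sodium iodide symporter and the one marker with enough reads to be tested, 0 to 256 counts.

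No difference in any of the 7 genes passed the threshold in any comparison. Differences are log2 fold changes ± SE from the quasi-likelihood test of edgeR, adjusted over all genes tested, with a threshold of adjusted p 0.05. In non-breeders 0 of the 7 genes passed between the sexes (0.0325% of all genes did), and in breeders 0 of 7 (0.0488% of all genes). For status, 0 of 7 passed in females, in males and averaged over both sexes, where the share of all genes was 0% each time. The interaction of sex and status (the difference in females minus the one in males) and the slope on age also called 0 of 7 (0% of all genes for each). Among 966 recomputations of these differences under alternative settings, 0 passed, and the lowest adjusted p was 0.0876, that of SERPINA7 with DESeq2. The closest to a difference was SERPINA7, lower in breeders of both sexes.

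**Figure D1:**
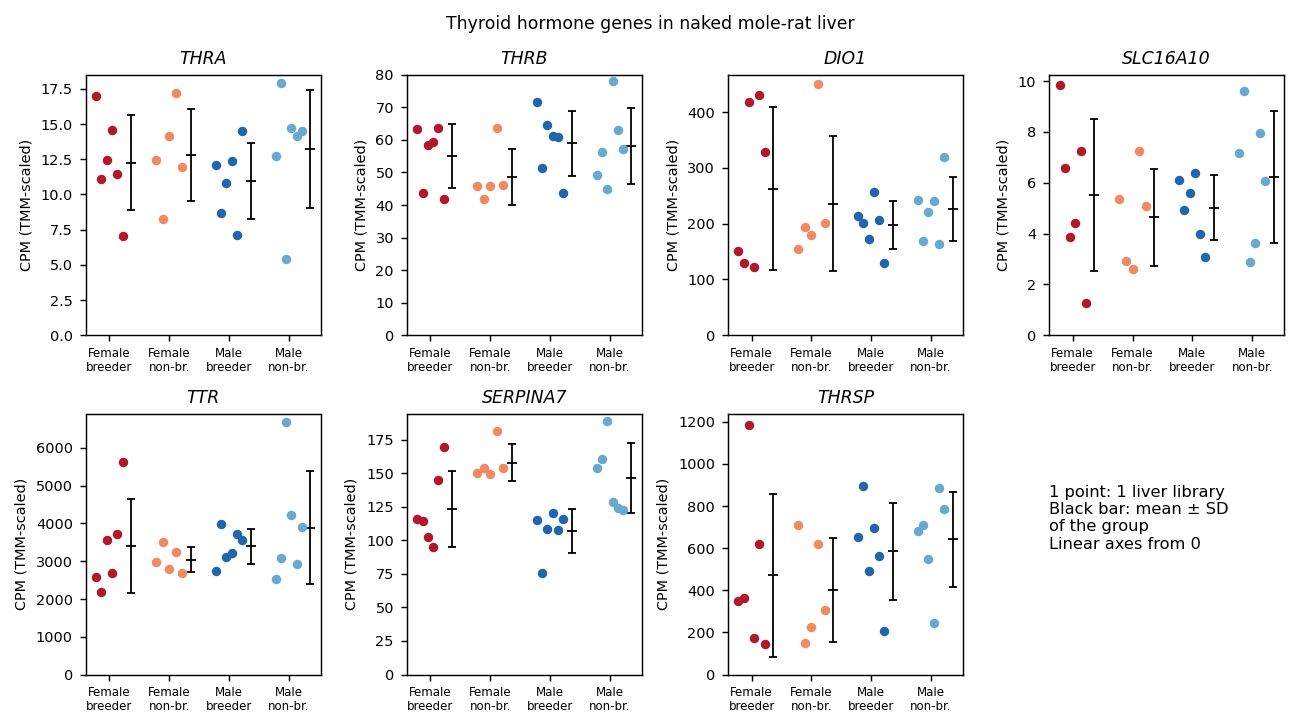
Levels of the 7 genes in CPM on linear axes from 0, with 1 point per liver library and the mean ± SD of each group as a black bar. For SERPINA7 the male breeders lie at 75.3 to 120.0 CPM and the male non-breeders at 122.2 to 188.5 CPM, whereas for the other genes the groups overlap.

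The plot of levels by library shows how differently the 7 genes varied between animals. THRSP had the widest spread, 144.2 to 1183 CPM and thus 8.21-fold between the lowest and the highest library. SLC16A10 spread 7.72-fold, DIO1 3.69-fold, THRA 3.32-fold, TTR 3.04-fold, SERPINA7 2.50-fold and THRB 1.87-fold. Within groups, the biological coefficient of variation was 53.9% for THRSP, above that of 95.2% of genes, 42.2% for SLC16A10 and 37.7% for DIO1. It was 28.8% for THRA and 26.9% for TTR, and lay below the median over all genes of 24.0% for THRB (19.3%) and SERPINA7 (18.8%). Over all 23 libraries the beta receptor and SERPINA7 thus had the lowest coefficients of the 7 genes, and THRSP the highest. Without the 3 libraries that stood apart TTR ranged from 2194 to 4221 CPM and THRA from 8.25 to 17.9 CPM. SERPINA7 then ranged from 75.3 to 181.7 CPM, so its place among the least variable genes rests on those libraries as far as ranges go. The coefficients were not recomputed without them.

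THRB encodes the beta receptor, the main thyroid hormone receptor of hepatocytes in mouse. Female breeders had 41.8 to 63.6 CPM with a median of 59.0, male breeders 43.6 to 71.7 CPM with a median of 61.1, and male non-breeders 44.8 to 78.2 CPM with a median of 56.9. Female non-breeders stood at 45.9, 41.9, 46.0, 63.8 and 46.0 CPM. These ranges overlapped, although 4 of the 5 female non-breeders lay below the median of every other group. THRB in female non-breeders differed from male non-breeders by -0.26 ± 0.16 (95% interval -0.58 to 0.07, adjusted p = 0.856) and female breeders from female non-breeders by 0.18 ± 0.16 (-0.15 to 0.50, adjusted p = 1.00). Without female non-breeder 4, the highest of its group, these values were -0.37 (edgeR, unadjusted p = 0.0308, adjusted p = 0.682) and 0.29 (unadjusted p = 0.0828). The sex difference was -0.15 without male non-breeder 4. Between the sexes of breeders the difference was -0.10 ± 0.15 and for status in males 0.02 ± 0.15, the latter with an interval of -0.29 to 0.33. Averaged over both sexes, breeders differed by 0.10 ± 0.11 (-0.13 to 0.32), the narrowest of these intervals after that of SERPINA7.

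THRA encodes the alpha receptor, which predominates in heart, bone and brain and is also present in liver. Female breeders had 7.08 to 17.0 CPM with a median of 11.9, male breeders 7.09 to 14.5 CPM with a median of 11.5, and male non-breeders 5.40 to 17.9 CPM with a median of 14.3. Female non-breeders stood at 12.5, 8.25, 14.1, 17.2 and 11.95 CPM and overlapped every other group. The status difference of THRA was -0.06 ± 0.25 in females, -0.27 ± 0.24 in males and -0.17 ± 0.17 averaged (95% interval -0.53 to 0.19, adjusted p = 0.890). The lowest library of 3 of the 4 groups was also a library that stood apart. Male non-breeder 3 deviated from its group mean by -1.19 on the log2 scale, female breeder 6 by -0.73 and male breeder 5 by -0.58. THRA had the largest age slope of the receptors, -0.38 ± 0.18 per year (edgeR, unadjusted p = 0.0443, adjusted p = 0.611), which 8.02% of all genes also reached by unadjusted p under 0.05. The slope was -0.22 ± 0.13 without the 3 libraries (unadjusted p = 0.114). The counting used no strand. In human and rat THRA overlaps the clock gene NR1D1 on the opposite strand, and reads from such an overlap could not be told apart here. The deviations of both genes from their group means had an r of -0.17 over 23 libraries and of 0.08 over the 20 without those that stood apart (NR1D1 was chosen for this background and not by the naming rule).

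DIO1, the type 1 deiodinase, is a selenoenzyme of liver and kidney that removes iodine from thyroxine and its metabolites, and in mouse its transcript follows thyroid hormone supply through the beta receptor. Female breeders ranged from 122.2 to 430.3 CPM with a median of 239.7, male breeders from 129.98 to 257.6 CPM with a median of 204.2, and male non-breeders from 164.1 to 320.4 CPM with a median of 231.5. Female non-breeders stood at 154.4, 193.3, 180.3, 450.5 and 201.3 CPM. The female breeders were widely spread, with female breeders 1, 2 and 4 at 151.0, 129.1 and 122.2 CPM and female breeders 3, 5 and 6 at 417.3, 430.3 and 328.5 CPM. All 4 libraries above the highest male were thus from females, while the lowest 2 libraries were from females as well. The sexes did not differ by the test, neither in breeders (0.42 ± 0.31, 95% interval -0.23 to 1.06, adjusted p = 0.946) nor in non-breeders (0.06 ± 0.33, -0.62 to 0.73). The latter was -0.31 without female non-breeder 4. The status difference of DIO1 was 0.16 ± 0.33 in females and -0.20 ± 0.31 in males, with -0.02 ± 0.23 averaged (-0.49 to 0.45). It was 0.53 in females without female non-breeder 4 and -0.04 without female breeder 5, with no call in either case.

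SLC16A10, a carrier of aromatic amino acids that also moves triiodothyronine and thyroxine across the cell membrane, was counted at the lowest depth, with 16 to 186 reads per library. Female breeders had 1.27 to 9.83 CPM with a median of 5.48, male breeders 3.09 to 6.39 CPM with a median of 5.26, and male non-breeders 2.89 to 9.62 CPM with a median of 6.63. In female non-breeders it was at 5.34, 2.94, 2.59, 7.26 and 5.08 CPM. All groups overlapped, and the lowest library was female breeder 6, at -1.78 relative to its group mean on the log2 scale. The status difference of SLC16A10 was 0.26 ± 0.38 in females, -0.31 ± 0.36 in males and -0.03 ± 0.26 averaged (95% interval -0.56 to 0.51, adjusted p = 0.999). The female value was 0.02 without female breeder 1 and 0.48 without female non-breeder 4, and the male one -0.46 without male non-breeder 3 and -0.14 without male non-breeder 2. The sexes differed by -0.43 ± 0.38 in non-breeders and 0.15 ± 0.36 in breeders. Only THRSP had wider intervals among the 7 genes.

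TTR, transthyretin, carries thyroxine and, together with RBP4, retinol in plasma. It was counted at the greatest depth of the 7 genes, with 35080 to 103962 reads per library. Female breeders had 2194 to 5626 CPM with a median of 3131, male breeders 2746 to 3996 CPM with a median of 3389, and male non-breeders 2539 to 6678 CPM with a median of 3489. The 5 female non-breeders had 2981, 3505, 2790, 3239 and 2693 CPM. The highest values belonged to male non-breeder 3 and female breeder 6, both libraries that stood apart, and the remaining 21 libraries lay below them. TTR had a status difference of 0.16 ± 0.23 in females, -0.20 ± 0.22 in males and -0.02 ± 0.16 averaged (95% interval -0.34 to 0.31, adjusted p = 0.999). Between the sexes it differed by -0.36 ± 0.23 in non-breeders and 0.003 ± 0.22 in breeders. The value in non-breeders was -0.13 without male non-breeder 3 and -0.45 without male non-breeder 1. The values were -0.04 for status in females and -0.17 for the sexes of breeders without the 3 libraries, with opposite sign.

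SERPINA7 encodes thyroxine-binding globulin, a serpin without protease inhibitor activity that in human plasma binds thyroxine more tightly than the other carriers do. Female non-breeders stood at 150.0, 154.2, 149.6, 181.7 and 154.1 CPM, and female breeders at 94.8 to 169.2 CPM with a median of 115.0. Of the 6 female breeders 5 lay below the lowest non-breeder, and the exception was female breeder 6, a library that stood apart. Male breeders had 75.3 to 120.0 CPM with a median of 111.8, and male non-breeders 122.2 to 188.5 CPM with a median of 141.2. The male groups did not overlap, which held for 1 of the 7 genes and for 0.431% of all genes in this comparison. In the other comparisons it held for 0 of the 7 genes, and for 0.309% of all genes for status in females, 0.284% between the sexes of non-breeders and 0.349% between those of breeders. The group means were 123.5 ± 28.2 CPM in female breeders (SD, n = 6), 157.9 ± 13.5 CPM in female non-breeders (SD, n = 5), 107.2 ± 16.3 CPM in male breeders (SD, n = 6) and 146.2 ± 26.2 CPM in male non-breeders (SD, n = 6).

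The status difference of SERPINA7 did not pass the threshold. It was -0.35 ± 0.15 in females (95% interval -0.67 to -0.04, edgeR, unadjusted p = 0.0280, adjusted p = 1.00) and -0.45 ± 0.14 in males (-0.75 to -0.15, unadjusted p = 0.00514, adjusted p = 0.607). SERPINA7 was the only 1 of the 7 genes with an unadjusted p under 0.05 in these comparisons, against 3.7% of all genes in females and 5.88% in males. Averaged over both sexes the difference was -0.40 ± 0.10 (-0.62 to -0.18, unadjusted p = 0.000845, adjusted p = 0.289), a level 1.32-fold lower in breeders, and 7.94% of all genes had an unadjusted p under 0.05 there. By unadjusted p it took place 36 of 12306. The adjusted p was 0.0876 with DESeq2 and 0.158 with limma voom, and lay between 0.161 and 0.506 when each library was left out in turn, with differences of -0.46 to -0.36. The averaged difference was -0.41 ± 0.09 without the 3 libraries that stood apart (adjusted p = 0.239), with -0.46 in females and -0.36 in males. The difference in females did not depart from that in males (0.09 ± 0.21, -0.34 to 0.53, adjusted p = 1.00). Females and males differed by 0.11 ± 0.15 in non-breeders and 0.20 ± 0.14 in breeders.

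Summed levels of cell type markers are set beside the status difference of SERPINA7 here. Their ranges overlapped between breeders and non-breeders to differing extents, and their part in the difference of SERPINA7 was not tested. In males the summed level of 9 markers of stellate cells and fibroblasts was 91.9 to 129.6 CPM in breeders and 123.3 to 197.5 CPM in non-breeders, with 9 of 9 markers below 0 in log2 fold change. That of 10 markers of macrophages and Kupffer cells was 176.4 to 404.2 CPM in breeders and 299.0 to 481.2 CPM in non-breeders, and no marker of either list was at 0 in all libraries. Of the macrophage list 8 of 9 tested markers were below 0 (median -0.44). In each of these lists 3 of 9 tested markers had an unadjusted p under 0.05 (edgeR), all of them lower in breeders, against 5.88% of all genes. Hepatocyte markers summed to 125410 to 190721 CPM in male breeders and 121815 to 230252 CPM in male non-breeders, with 8 of 9 below 0. In females the sums of the stellate list overlapped widely, 116.9 to 316.3 CPM in breeders and 115.0 to 309.9 CPM in non-breeders. Hepatocyte markers there summed to 105644 to 210095 CPM in breeders and 122611 to 182681 CPM in non-breeders, with 8 of 9 below 0 (median -0.26, against -0.04 in males). Over all genes the median was 0.01 in females and -0.02 in males. Of 10 skeletal muscle markers 4 were tested, and all 4 were above 0 in females (median 1.99, 2 with an unadjusted p under 0.05), with sums over the list of 15.4 to 48.0 CPM in breeders and 14.2 to 27.7 CPM in non-breeders. In whole liver, fewer cells of a type and less RNA per cell cannot be told apart. Among male libraries of the longer reads only, 3 breeders and 6 non-breeders, SERPINA7 differed by -0.36 ± 0.17 (edgeR, unadjusted p = 0.0601), and no such value can be had in females.

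**Figure D2:**
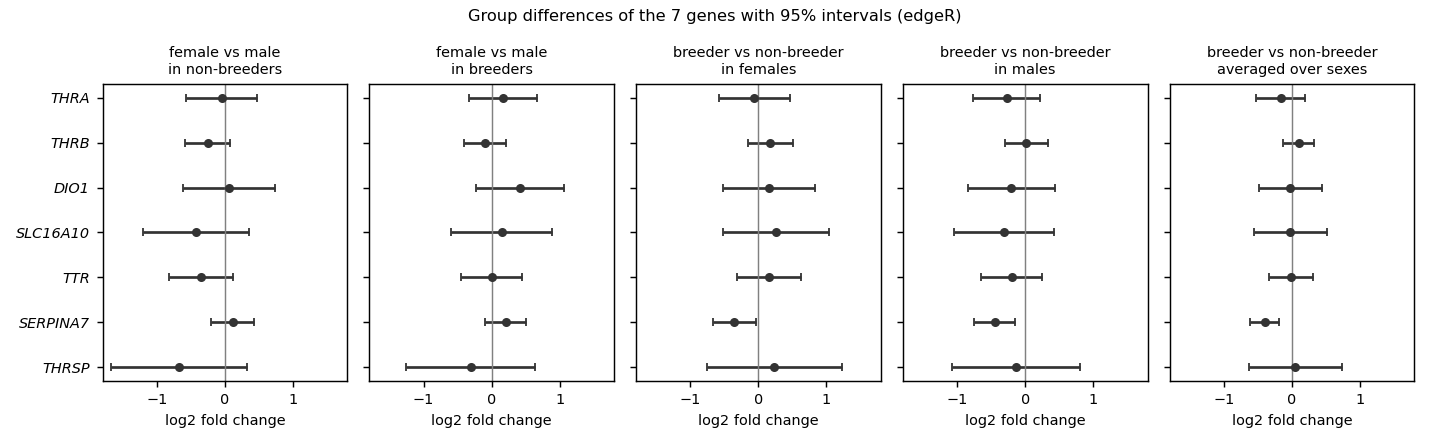
Log2 fold changes of the 7 genes with 95% intervals in 5 comparisons, from edgeR. The intervals of SERPINA7 lie below 0 for status in females (-0.67 to -0.04), in males (-0.75 to -0.15) and averaged (-0.62 to -0.18), and every other interval spans 0.

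THRSP, also known as Spot 14, is a nuclear protein of lipogenic tissues whose transcript is induced by thyroid hormone and carbohydrate feeding in rat liver. Female breeders ranged from 144.2 to 1183 CPM with a median of 355.6, male breeders from 207.2 to 894.7 CPM with a median of 609.4, and male non-breeders from 243.8 to 887.7 CPM with a median of 695.6. The 5 female non-breeders had 708.0, 148.0, 225.1, 619.4 and 307.7 CPM. Female medians were lower than male medians in both statuses, yet the ranges overlapped and the highest level of all was that of a female, breeder 3. THRSP in females differed from males by -0.68 ± 0.49 in non-breeders (95% interval -1.68 to 0.32, adjusted p = 0.870) and by -0.31 ± 0.46 in breeders (-1.26 to 0.64, adjusted p = 0.978). In the 9 breeders with the shorter reads, 6 females and 3 males, the latter was -0.53 ± 0.55. It was -0.83 without female breeder 3 (unadjusted p = 0.0681) and -0.12 without female breeder 6. The status difference was 0.23 ± 0.48 in females, -0.14 ± 0.46 in males and 0.05 ± 0.33 averaged (-0.64 to 0.73). The value in females was -0.29 without female breeder 3 and 0.54 without female non-breeder 1. The plot of differences with their intervals shows THRSP as the gene whose group differences were known least precisely.

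The interaction of sex and status (females minus males) was above 0 for 7 of 7 genes, with a median of 0.36 against 0.02 over all genes. Each of the 7 intervals spanned 0. The values were 0.58 ± 0.52 for SLC16A10, 0.37 ± 0.66 for THRSP, 0.36 ± 0.45 for DIO1, 0.36 ± 0.31 for TTR, 0.21 ± 0.35 for THRA, 0.16 ± 0.22 for THRB and 0.09 ± 0.21 for SERPINA7. TTR was at -0.04 and SERPINA7 at -0.10 without the 3 libraries that stood apart, so that 5 of 7 were above 0. Such a shared sign was not particular to the 7 genes. With all libraries 11 of 11 lipogenic genes (median 0.21) and 5 of 5 other hormone carriers (0.05) were above 0. So were 9 of 9 macrophage markers (0.46) and 9 of 9 stellate markers (0.60). By contrast 4 of 17 receptor partners, 4 of 9 transporters and 3 of 9 hepatocyte markers were above 0. Read length went with status in all females but only in part of the males, so it cannot be told apart from this interaction. The signs are not independent either, since THRA, TTR and SLC16A10 were related across livers. TTR had an r below 0 with THRA (-0.67) and with SLC16A10 (-0.71), whereas THRA with SLC16A10 had 0.61. These relations rested on few libraries, as given below. Apart from THRA, no gene of the 7 had an age slope with an unadjusted p under 0.05.

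The other genes of the pathway were grouped by role. In the 7 lists, 0 of the genes tested passed the threshold in any comparison. Of 17 partners and cofactors of the receptors tested, 8 were above and 9 below 0 in the averaged status difference (median 0.00, and 0.00 over all genes). The acetyltransferase EP300, a coactivator, had 0.34 ± 0.13 there (adjusted p = 0.460). Medians of the receptor partners lay between -0.15 and 0.13 in the 7 comparisons. The lowest was that of the interaction of sex and status, with 13 of 17 below 0 (0.02 over all genes).

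Among 9 further transporters tested, 4 were above and 5 below 0 in the averaged status difference (median -0.05). SLC3A2, the heavy chain that brings light chains such as SLC7A5 to the cell surface, was at 91.0 to 131.0 CPM in female breeders and 128.7 to 190.2 CPM in female non-breeders. These ranges overlapped only at their edges, and the difference was -0.51 ± 0.12 (edgeR, unadjusted p = 0.000352, adjusted p = 0.898). In males SLC3A2 had -0.01 ± 0.12, and the difference between both, -0.51 ± 0.17, did not pass (adjusted p = 1.00). SLC7A5, a light chain, had 0.71 ± 0.24 averaged over the sexes (adjusted p = 0.387) at levels of only 0.21 to 1.59 CPM.

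**Figure D3:**
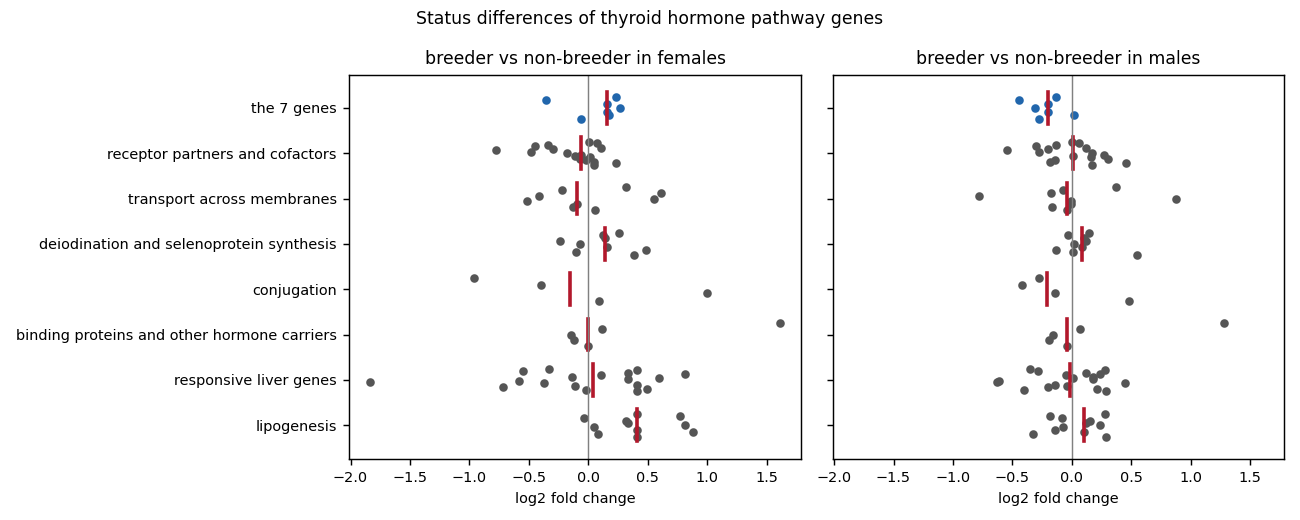
Log2 fold changes for status in females (left) and in males (right), with 1 point per tested gene in 7 pathway lists and the 7 genes described above in blue, and the median of each list as a red line. List medians lie between -0.15 and 0.40 in females and between -0.21 and 0.10 in males, and 0 of the genes shown passed the threshold.

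Deiodination and the synthesis of selenoproteins gave 6 genes above and 3 below 0 of 9 tested (median 0.12 in the averaged status difference). TRNAU1AP, a protein bound to selenocysteine transfer RNA, had 0.20 ± 0.11 (adjusted p = 0.664), and IYD, which recovers iodide from iodotyrosines, 0.49 ± 0.26 in females (adjusted p = 1.00). Of the other deiodinases, DIO2, which activates thyroxine in brain and brown fat, had 0 to 10 counts per library and was not tested. DIO3, which inactivates both thyroxine and triiodothyronine, had 2 to 101 counts or 0.16 to 6.07 CPM and a status difference of 0.47 ± 0.46 (-0.49 to 1.42). Of 4 conjugating enzymes tested, 2 were above and 2 below 0. The sulfotransferase SULT1C2 had 0.99 ± 0.45 in females and UGT1A6, which attaches glucuronic acid, -0.96 ± 0.51 (adjusted p = 1.00 for both), while SULT1B1 and SULT1E1 had at most 5 counts in any library.

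Among plasma and cellular hormone carriers other than TTR and SERPINA7, 2 of 5 were above 0 in the averaged status difference (median -0.03). SERPINA6, corticosteroid-binding globulin and a close relative of SERPINA7, had a difference of the opposite sign, with 13.8 to 46.5 CPM in female breeders and 5.79 to 13.7 CPM in female non-breeders. Male breeders had 16.4 to 52.1 CPM and male non-breeders 9.93 to 32.9 CPM. The averaged difference was 1.45 ± 0.25 (edgeR, adjusted p = 0.0755), the smallest adjusted p in these lists. Albumin (ALB) differed by -0.03 ± 0.14, and RBP4, the partner of TTR, by 0.09 ± 0.11 with intervals of -0.32 to 0.27 and -0.15 to 0.33. Between female and male non-breeders RBP4 had -0.24 ± 0.17 (adjusted p = 0.870). SHBG, the carrier of sex steroids, had at most 4 counts per library and was not tested.

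Of 18 tested genes listed as responsive to thyroid hormone in other mammals, 11 were above and 7 below 0 (median 0.03 in the averaged status difference). ACACA, FASN, ME1, MID1IP1 and SREBF1 were in this list and also in that of lipogenesis, so the counts of these lists are not separate. FGF21, a fasting hormone, had -1.84 ± 0.79 in females (adjusted p = 1.00) with 1.59 to 32.3 CPM in non-breeders and 1.11 to 6.91 CPM in breeders. UCP2, a mitochondrial carrier, had -0.34 ± 0.14 averaged (adjusted p = 0.529). In lipogenesis, 10 of 11 genes were above 0 for status in females (median 0.40, and 0.01 over all genes) and 6 of 11 in males (median 0.10), with 0 at an unadjusted p under 0.05 in either. FASN, fatty acid synthase, and SCD, stearoyl-CoA desaturase, had -0.74 ± 0.32 and -0.90 ± 0.47 between female and male non-breeders (adjusted p = 0.856 for both), the comparison in which THRSP had -0.68 ± 0.49.

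Relations between the genes across animals were measured on log2 CPM after removing group means, so that they reflect differences between animals of the same sex and status. Over the 21 pairs of the 7 genes, 3 had an adjusted permutation p under 0.05. TTR had an r of -0.71 with SLC16A10 (rho -0.60) and of -0.67 with THRA (rho -0.46), and THRA had an r of 0.61 with SLC16A10 (rho 0.44), with an adjusted permutation p of 0.0329 for each r and of 0.114, 0.181 and 0.181 for the rho values. These relations rested on few libraries. Without the 2 libraries farthest from the median of the first gene of a pair, r was -0.47 for TTR with SLC16A10, -0.31 for THRA with TTR and 0.34 for THRA with SLC16A10. Without the 3 libraries that stood apart, r was -0.41, -0.17 and 0.26 (adjusted permutation p of 0.370, 0.667 and 0.609).

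**Figure D4:**
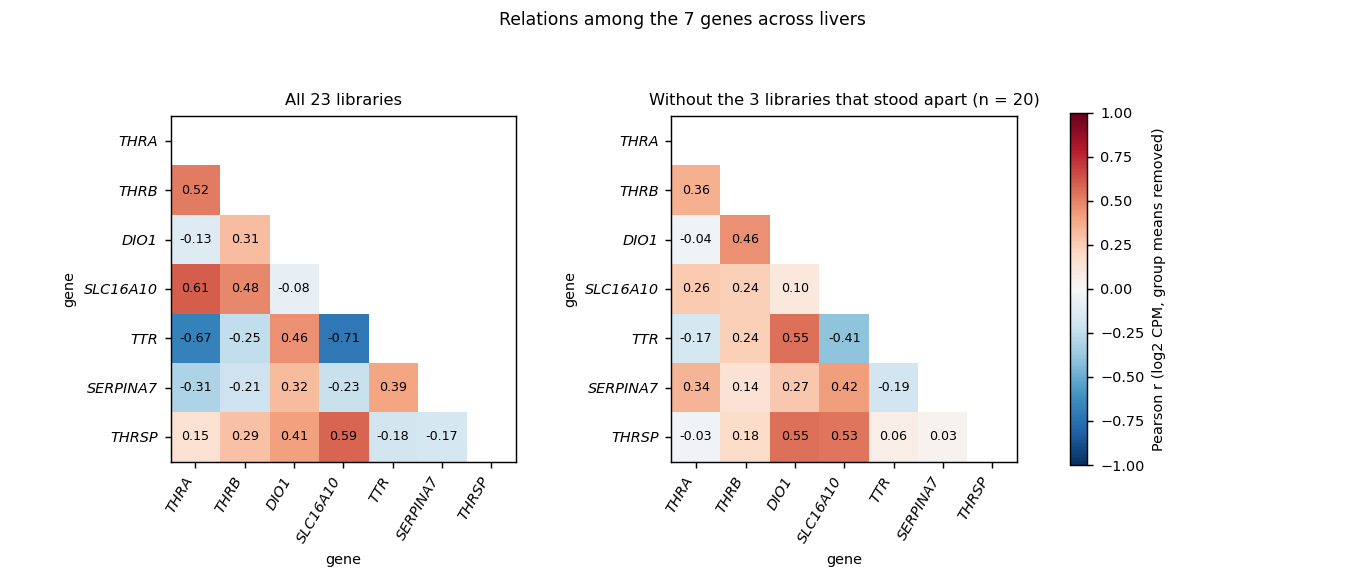
Pearson r between the 7 genes across livers after removing group means, for all 23 libraries (left) and for the 20 without those that stood apart (right). The r of TTR with SLC16A10 goes from -0.71 to -0.41 and that of THRA with TTR from -0.67 to -0.17.

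Within each read length the same 3 relations had r between -0.78 and -0.65 for those of TTR and of 0.79 (shorter, n = 9) and 0.56 (longer, n = 14) for THRA with SLC16A10, with a library that stood apart in either class. The first principal component, on which these libraries stood apart, had an r of -0.86 with THRA, 0.77 with TTR and -0.71 with SLC16A10. For DIO1 and THRSP it was 0.08 and -0.19. The heatmap of the 21 pairs also shows pairs that kept their sign and size without the 3 libraries. DIO1 with THRSP had 0.41 and 0.55, DIO1 with TTR 0.46 and 0.55, and THRSP with SLC16A10 0.59 and 0.53. These did not pass the threshold with all libraries (adjusted permutation p of 0.307, 0.169 and 0.0606).

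THRSP ran with 4 lipogenic genes across livers, whereas its relations with other lipogenic partners did not pass. The 17 pairs of the 7 genes with partner genes were chosen with earlier results of these data known, so their p-values are descriptive only. Of these 17 pairs, 4 passed, all of them with THRSP. Its r was 0.66 with FASN (rho 0.71, adjusted permutation p = 0.0218), 0.66 with ELOVL6, a fatty acid elongase (rho 0.64, adjusted permutation p = 0.0238), 0.62 with SREBF1, the lipogenic transcription factor SREBP-1 (rho 0.57, adjusted permutation p = 0.0238), and 0.60 with SCD (rho 0.72, adjusted permutation p = 0.0268). Adjusted p of rho were 0.00374, 0.0129, 0.0540 and 0.00374 in this order. These values pool the deviations of 4 groups, and single groups differed. In the 3 groups of 6 livers r was 0.58 to 0.96 for FASN, 0.34 to 0.95 for ELOVL6, 0.10 to 0.92 for SREBF1 and 0.31 to 0.76 for SCD, and the lowest value was that of male non-breeders except for FASN. The 5 female non-breeders, too few for a relation, had -0.08 for ELOVL6, 0.32 for FASN, 0.65 for SREBF1 and 0.81 for SCD.

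**Figure D5:**
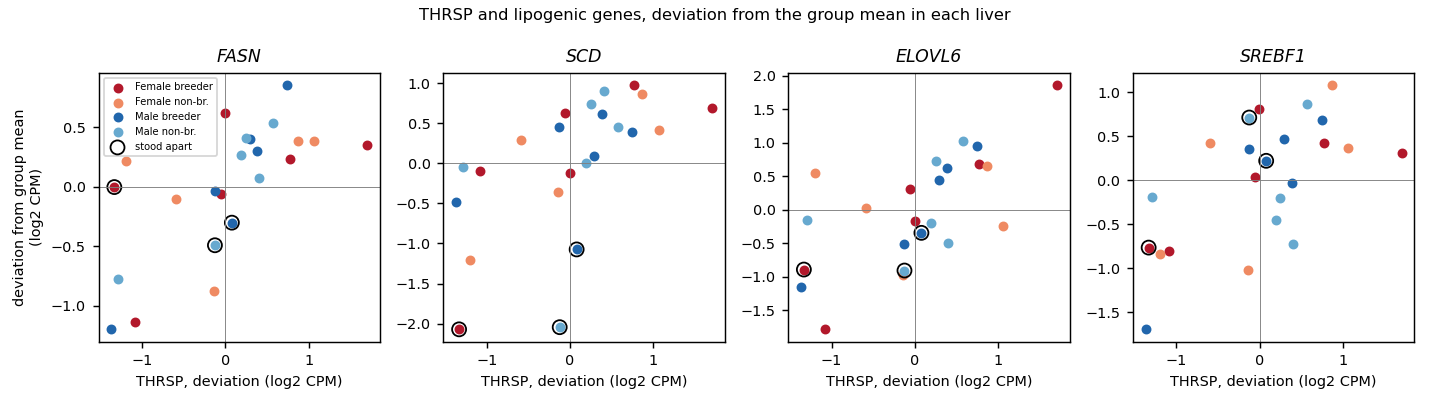
Deviation of FASN, SCD, ELOVL6 and SREBF1 (y axes) against that of THRSP (x axes) from the group mean, in log2 CPM, with 1 point per liver, colored by group, and rings around the 3 libraries that stood apart. Pooled over the groups, r was 0.66, 0.60, 0.66 and 0.62 over 23 livers.

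Without the 2 livers farthest in THRSP, r was 0.61 for FASN, 0.51 for ELOVL6, 0.58 for SREBF1 and 0.60 for SCD. Without the 3 libraries that stood apart it was 0.73, 0.65, 0.62 and 0.74, and all 4 pairs passed (adjusted permutation p of 0.0136, 0.0406, 0.0457 and 0.0136). Leaving out each library in turn gave r from 0.58 to 0.74 for FASN, 0.55 to 0.77 for ELOVL6, 0.53 to 0.67 for SREBF1 and 0.51 to 0.69 for SCD. The adjusted permutation p then reached 0.0768, 0.0768, 0.121 and 0.0835 at most. Within read lengths, r was 0.61 (n = 9) and 0.68 (n = 14) for FASN, 0.73 and 0.48 for SCD, 0.94 and 0.32 for ELOVL6, and 0.74 and 0.57 for SREBF1, shorter reads first.

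The relations of THRSP with 5 other lipogenic partners did not pass. ACLY, ATP citrate lyase, had an r of 0.03, MLXIPL, the carbohydrate-responsive factor ChREBP, of -0.31, and ME1, malic enzyme and a thyroid hormone target in rat liver, of -0.38. MID1IP1, a relative of THRSP, had 0.22. ACACA, acetyl-CoA carboxylase, had an r of 0.40 (adjusted permutation p = 0.179) and a rho of 0.47 (adjusted permutation p = 0.0758). Its r passed without male non-breeder 4 (0.47, adjusted permutation p = 0.0380) and lay between 0.26 and 0.50 when each library was left out in turn. The r of ME1 was 0.48 in livers with shorter reads and -0.72 in those with longer reads. That of ACLY was 0.43 and -0.39, and that of MID1IP1 0.74 and -0.06, shorter reads first. No single value describes these pairs.

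The plasma carriers did not run together either. SERPINA7 with TTR had an r of 0.39 (adjusted permutation p = 0.307), and -0.19 without the 3 libraries. SERPINA7 with SERPINA6 had -0.14 within groups (adjusted permutation p = 0.686). Where group means were kept it had -0.61 (adjusted permutation p = 0.00731, permuted across groups). This value includes the opposite status differences of both genes given above, so its p is not a separate result. TTR with RBP4 had -0.34 and with ALB -0.28 (adjusted permutation p = 0.437 for both), and SERPINA7 with ALB 0.02. Among the remaining pairs, DIO1 with KLF9, a hormone-induced transcription factor, had 0.11 and THRB with KLF9 0.14.

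As a description, the genes most like each of the 7 were taken by r over 23 libraries among 12305 others, with group means removed. Libraries share depth and the first principal component, so these values carry no test. SLC16A10 was closest to DIO3 (r 0.88, and 0.84 without the 3 libraries), followed by the adhesion molecule NCAM1 (0.87). For DIO3 r was 0.87 in the shorter and 0.89 in the longer reads, at 16 to 186 counts of SLC16A10 and 2 to 101 counts of DIO3. The transporter and the inactivating deiodinase were thus high and low in the same livers. THRSP was closest to CDO1, cysteine dioxygenase (0.91, and 0.94 without the 3 libraries), ahead of the autophagy receptor OPTN (0.84) and SLC51B, a bile acid transporter subunit (0.81). CDO1 ranged from 338.0 to 871.5 CPM, a much narrower span than that of THRSP.

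For the receptors, THRB was closest to LDLRAD3 (0.84), GPRIN3 (0.82) and PLS3 (0.79), and THRA to CHST7 (0.92), BCDIN3D (0.92) and BMP10 (0.91). Without the 3 libraries those of THRA were 0.76, 0.73 and 0.72 and those of THRB 0.80, 0.86 and 0.80. TTR was closest to the ribosomal protein gene RPL19 (0.92, and 0.82 without them), ABHD11 (0.92) and ADI1 (0.92). DIO1 was closest to CARHSP1 (0.80), BEX2 (0.80) and NCK1 (0.79), and SERPINA7 to HIP1 (0.74), NAGLU (0.73) and EID2 (0.72), the lowest likeness of the 7 genes.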

How the data were processed

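Liver libraries were poly(A)-selected, unstranded and sequenced single-end. The authors aligned them to the public NMR genome (STAR, in version 2.4.1d by the submitters' processing notes), dropped reads with several loci and used HTSeq to count the rest on a transcript set of this species. The deposited counts are raw and not normalized. 803 of 16339 rows had no count.

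Counts were analyzed in R 4.3.3 with edgeR 4.0.16 (filterByExpr with minimum count 10 and minimum total 15, TMM, 1 mean per group over all 23 libraries, robust quasi-likelihood F-test, two-sided, Benjamini-Hochberg adjustment). SE was obtained by dividing the log2 fold change by the root of F. The common biological coefficient of variation was 28.9%. log2 CPM used a prior count of 2. Relations used 100000 two-sided permutations within groups, adjusted within families of 21 and 17 pairs, with 1e-05 as the smallest p they can give. Scripts were tested on simulated data. Litters are not in the labels, so animals were treated as independent.

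Named were the 7 genes; from each pathway list, genes past the threshold in any comparison, else the 2 of smallest p; the partners paired for relations; and the 3 genes most like each of the 7. Some genes that this rule names are not reported here. Genes, lists and pairs were chosen with earlier results of these data known. Alternatives were the scaling and the Wald test of DESeq2 1.42.0, no filter, limma 3.58.1 voom with quality weights, threshold 0.01, age as covariate, only the groups compared, only longer reads (males), group means not removed, and leaving out the 3 libraries that stood apart or each library in turn. Only shorter reads (breeders) was chosen after seeing the data. Levels of different genes were not compared, since transcript lengths are not used here.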

Additional observations from a re-analysis of the deposited data

Results flagged for a closer look

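In 28 groups of 5 or 6 libraries, 4 values lay farther from the rest of their group than Dixon's 95% critical value allows. Chance gives about 1 in 20 for independent groups of normally distributed values. The genes share the same libraries and CPM were not transformed, so 4 of 28 cannot be judged by that rate. THRB in female non-breeder 4 was at 63.8 CPM, with 41.9 to 46.0 CPM in the other 4. DIO1 in the same library was at 450.5 CPM against 154.4 to 201.3 CPM, and SERPINA7 at 181.7 CPM against 149.6 to 154.2 CPM. A single animal thus gave 3 of the 4 values. SERPINA7 in male breeder 2 was at 75.3 CPM, below 107.9 to 120.0 CPM in the other 5.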

How the results depend on the processing

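The study used litter siblings and breeding pairs, but the labels do not say which animals belong together. No paired analysis was therefore possible. None of the 7 genes passed in any alternative, and SERPINA7 was lower in breeders in each that was run for status, in both sexes and averaged. DESeq2 called 24 genes between the sexes of breeders (edgeR 6), 5 for status in females, 2 in males and 36 averaged (edgeR 0 each), 1 for the difference of status differences and 2 for age. limma voom called 1 for status in males and 5 averaged. Between the sexes of breeders 3 genes passed at threshold 0.01, with only the groups compared, and without the 3 libraries that stood apart, and 1 with only shorter reads. Between those of non-breeders 2 passed with only the groups compared. Leaving out each library in turn gave 3 to 5 genes between the sexes of breeders, 0 to 1 for status in males (1 without male non-breeder 3) and 0 to 2 averaged. In this and the lists that follow, the cause was not tested.

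Log2 fold changes that reversed were all short of the threshold. In limma voom they were DIO1 -0.011 between the sexes of non-breeders, TTR -0.12 between those of breeders, THRA 0.070 and DIO1 -0.024 for status in females, THRB -0.013 and TTR 0.012 in males, SLC16A10 0.014, TTR 0.010 and THRSP -0.13 averaged, TTR -0.0036 and SERPINA7 -0.11 in females minus males, and THRB 0.054 and TTR -0.029 per year. Without the 3 libraries they were TTR -0.17 between the sexes of breeders, THRA 0.055 and TTR -0.043 for status in females, THRB -0.057 in males, SLC16A10 0.033 averaged, TTR -0.040 and SERPINA7 -0.10 in females minus males, and THRB 0.027 and TTR -0.0075 per year. The others were TTR -0.0044 between the sexes of breeders with no filter on low counts, SLC16A10 -0.0021 there with only shorter reads, SLC16A10 0.036 averaged with age as covariate, and THRB -0.084 in males with only longer reads.

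Leaving out each library in turn gave, between the sexes, THRA -0.21 to 0.073 and DIO1 -0.31 to 0.18 in non-breeders, and SLC16A10 -0.097 to 0.35 and TTR -0.20 to 0.10 in breeders. For status it gave THRA -0.18 to 0.068, DIO1 -0.040 to 0.53, TTR -0.043 to 0.26 and THRSP -0.29 to 0.54 in females, THRB -0.046 to 0.12, TTR -0.30 to 0.025 and THRSP -0.31 to 0.038 in males, and DIO1 -0.12 to 0.16, SLC16A10 -0.15 to 0.084, TTR -0.12 to 0.092 and THRSP -0.21 to 0.20 averaged. In females minus males SERPINA7 ranged from -0.017 to 0.17 and THRSP from -0.15 to 0.67. Further ranges, with no change of sign, were those between the sexes of breeders for THRA (0.050 to 0.28), THRB (-0.17 to -0.030), DIO1 (0.22 to 0.57) and SERPINA7 (0.094 to 0.28), between those of non-breeders for TTR (-0.45 to -0.13), SLC16A10 (-0.65 to -0.26) and SERPINA7 (0.056 to 0.20), for status in males for THRA (-0.44 to -0.17) and DIO1 (-0.29 to -0.077), averaged for THRA (-0.25 to -0.10) and THRB (0.065 to 0.16), and in females minus males for THRA (0.096 to 0.37), THRB (0.055 to 0.27), DIO1 (0.16 to 0.73), TTR (0.13 to 0.46) and SLC16A10 (0.33 to 0.79).

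Of 38 relations 7 passed, 4 without the 3 libraries, and 1 (without female breeder 6) to 10 (without male non-breeder 4) when each library was left out. Without the 3 libraries r reversed for THRA with SERPINA7 (0.34) and THRSP (-0.034), THRB with TTR (0.24), SERPINA7 (0.14) and KLF9 (-0.096), DIO1 with SLC16A10 (0.10), TTR with SERPINA7 (-0.19), THRSP (0.064), RBP4 (0.28) and ALB (0.24), and SERPINA7 with THRSP (0.033) and SLC16A10 (0.42). With group means not removed it reversed for SERPINA7 with ALB (-0.033) and THRSP with ACLY (-0.067). Ranges on leaving out a library were -0.0019 to 0.27 for THRA with THRSP, -0.24 to 0.083 for DIO1 with SLC16A10, -0.26 to 0.024 for TTR with THRSP, -0.32 to 0.013 for SERPINA7 with THRSP, -0.30 to 0.13 for SERPINA7 with SLC16A10, -0.13 to 0.23 for SERPINA7 with ALB, -0.037 to 0.22 for DIO1 with KLF9, -0.35 to 0.16 for THRSP with ACLY and -0.0022 to 0.29 for THRB with KLF9. SLC16A10, with as few as 16 reads in a library, is the gene that depth limits most.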
